A study of Mus musculus with 6 samples.

Results

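A set of 37 neuronal and neuroblast genes was followed in mouse ependymal cultures of wild-type and Edf1 knockout origin. The genes were chosen by symbol, and all 37 were found among the 22851 gene symbols of the deposited count table. They cover neuronal transcription factors, neuroblast and axon growth genes, the neuronal cytoskeleton, neuronal RNA-binding proteins, synaptic vesicle and endosome genes, transmitter genes and 2 markers of neuron subtypes. The libraries came from radial glial cells of the brains of wild-type (WT) or Edf1 knockout mice at postnatal days 0 to 3, on a C57BL/6J background; the knockout was made by CRISPR/Cas9 editing. Cells of both genotypes were grown in serum and then kept without serum for 6 days, which turns radial glia into multiciliated ependymal cells. Each genotype has 3 libraries, which the series' design text calls biological replicates. The labels do not say how many animals went into a library or in which cells the knockout acts, and in whole cultures fewer cells of a type cannot be told apart from less RNA per cell.

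Radial glia are progenitors that give rise to neurons before birth and to ependymal cells and astrocytes around birth. A cell that turns into a neuron first expresses proneural transcription factors, then Dcx and the stathmins as a migrating neuroblast, and later neurofilaments, synaptic vesicle proteins and the enzymes and carriers of its transmitter. In other cells the repressor REST holds many of these genes down. Several genes used as neuronal markers, among them Ncam1 and Map2, are also transcribed in glia and their progenitors.

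Total counts ranged from 13071766 to 28087006 per library, with the lowest total in WT replicate 2. Edf1 itself had 82.9 ± 2.85 CPM (read counts scaled to library size) in WT against 11.3 ± 1.72 CPM in the knockout libraries (SD, n = 3 each). All 8 ependymal markers listed, Foxj1 among them, were detected, and their summed level was 1867 to 2138 CPM in WT and 1057 to 1113 CPM in the knockout. The 10 radial glia and astrocyte markers summed to 9953 to 10445 CPM in WT and 10922 to 11343 CPM in the knockout. Vim, which was not called, made up most of this sum, at 6273 CPM in WT against 6849 CPM in the knockout libraries. Of the 10 markers, 3 were called higher, 1 (Gfap, -0.42 on the log2 scale) lower and 6 were not called. Of 14243 genes tested with edgeR's quasi-likelihood test, 26.9% had a Benjamini-Hochberg adjusted p-value under 0.05, 12.7% higher and 14.2% lower in the knockout.

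The cultures held a small part of the neuronal repertoire at a sizeable level. Levels of different genes are compared here as CPM per kilobase (kb) of exon, with exon lengths from GENCODE M21 (build GRCm38). In WT, 8 genes lay between 5.72 and 17.7 CPM per kb. In falling order they were Nsg2, Map2, Ncam1, Nsg1, Gap43, Syn2, Stmn3 and Stmn2. The next gene, Syp, was at 1.45 CPM per kb, and Neurod2, at the bottom, had 0 counts in each WT library. Several genes used to define neurons were low. Rbfox3, which encodes the nuclear antigen NeuN, had 0.131, Snap25 had 0.0664 and Dcx had 0.0631 CPM per kb. Map2 and Stmn2, also used as neuronal markers, were among the 8 highest, at 15.8 and 5.72 CPM per kb. In the knockout the same 8 genes were the highest, at 5.17 to 19.2 CPM per kb.

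**Figure D1:**
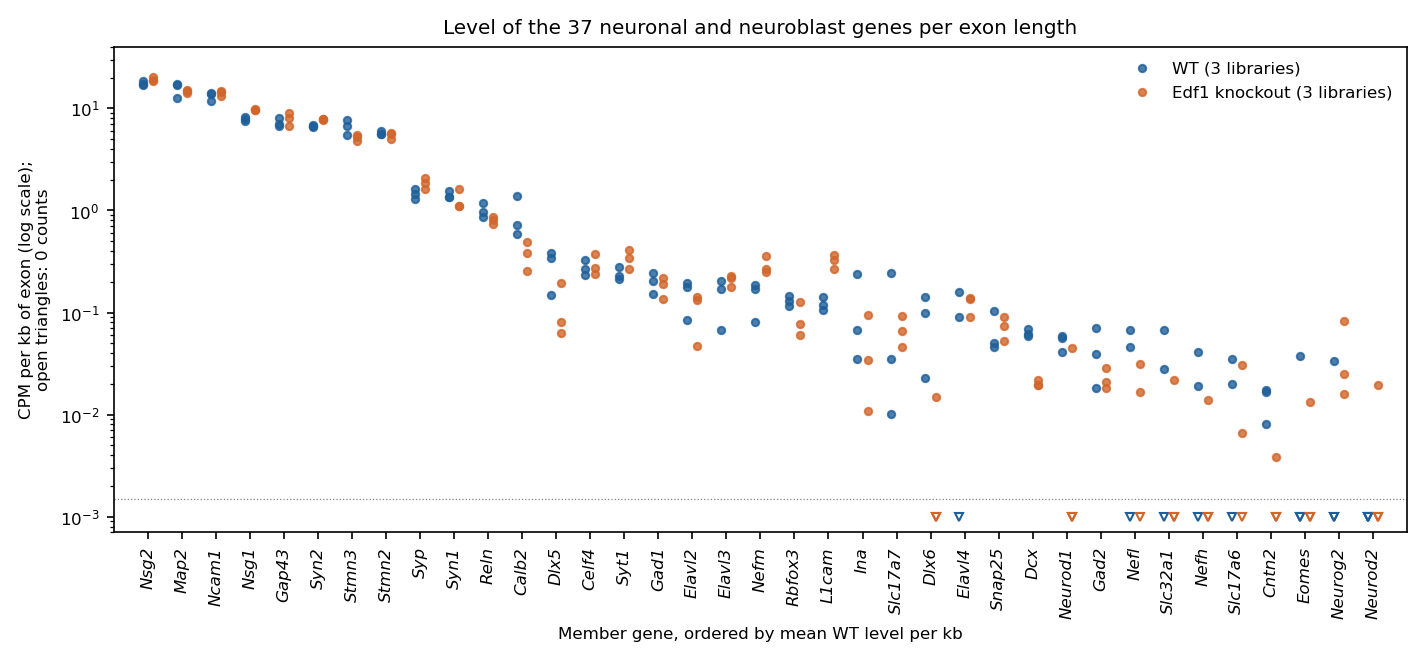
Level of each of the 37 genes in CPM per kb of exon, on a log axis, with 1 point per library (3 WT, 3 Edf1 knockout) and genes ordered by their mean in WT; open triangles mark libraries with 0 counts. The first 8 genes, from Nsg2 to Stmn2, lie at 5.72 to 17.7 CPM per kb in WT, and a gap separates them from Syp at 1.45.

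Of the 37 genes, 22 had a mean of 10 or more counts over the 6 libraries, and these were also the genes that passed the low-count filter and were tested. In the knockout 3 of the 22 were called higher, L1cam, Nsg1 and Syn2, and 3 were called lower, Dcx, Calb2 and Reln. These 27.3% of tested members stand beside 26.9% of all tested genes. The groups did not overlap for 9 of the 22 genes (40.9%), with the knockout above WT in 5 and below it in 4. Over all tested genes the groups did not overlap for 43.3%, with the knockout above in 21.3% and below in 22.1%. The median log2 fold change of the 22 genes was 0.10, and that of all tested genes was 0.0029. The members' median was 0.012 without WT replicate 2, 0.029 without knockout replicate 2, 0.034 without knockout replicate 3, 0.052 without WT replicate 1 and 0.062 with a correction for GC content and transcript length, and it turned to -0.18 when all 37 genes were tested. For all 6 libraries without the GC and length correction, the share of calls and of separated groups was thus close to the background. With the correction, 6 of the 22 members were called higher and 4 lower, beside 2028 higher and 2442 lower of all 14243 tested genes. The members' share was then above that of all tested genes, but the shares were not compared by a test. The added calls were Nsg2, Syp, Map2 and Nefm, with edgeR adjusted p-values of 0.0239, 0.0303, 0.0415 and 0.0491. With the replicate block as well, 5 members were called higher and 4 lower, and Nefm was not called (edgeR adjusted p-value 0.0646). Leaving out 1 library gave 2 to 4 members higher and 1 to 4 lower, while 2658 to 4340 genes were called over the whole table. The count of lower members fell to 1 without knockout replicate 1, 2 or 3.

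**Figure D2:**
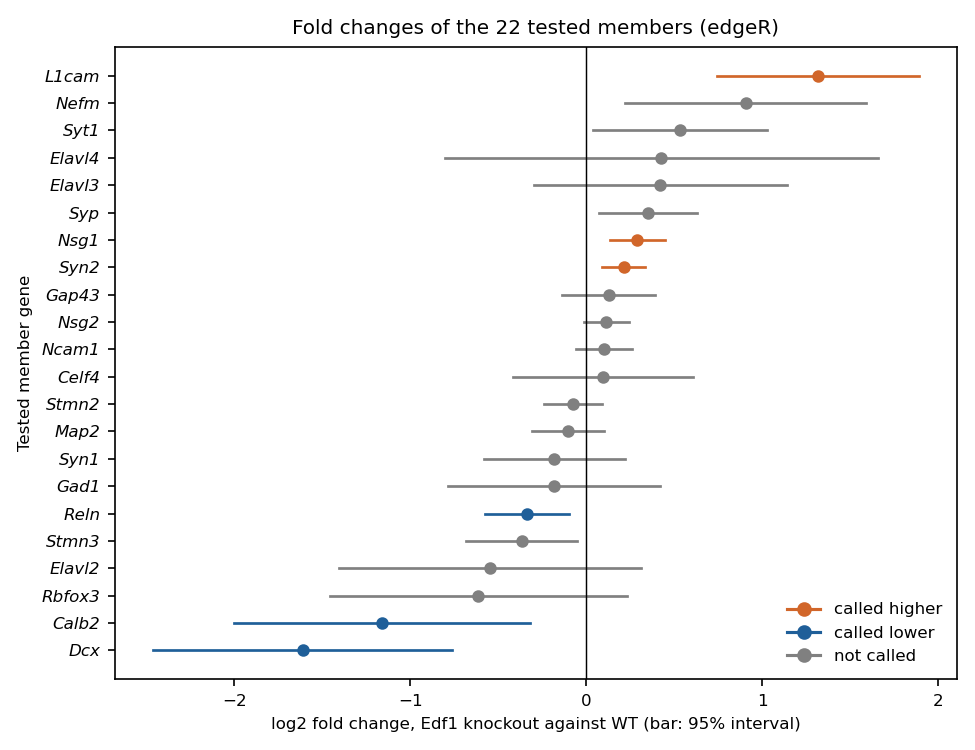
Log2 fold change of Edf1 knockout against WT for the 22 tested genes, with bars for the 95% interval and colour for the call by edgeR at an adjusted p-value under 0.05. L1cam (1.32) is the highest and Dcx (-1.61) the lowest, and 16 of the 22 genes are not called.

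Neuroblast and axon growth genes held both the largest rise and the largest fall among the 22 tested genes. Dcx, at chrX:143855842-143933311, encodes doublecortin, a microtubule-binding protein of migrating neuroblasts. It had 20, 10 and 16 counts in WT replicates 1, 2 and 3, and 4, 5 and 7 in the knockout. In CPM these were 0.753, 0.777 and 0.865 in WT against 0.246, 0.279 and 0.248 in the knockout libraries. The groups were well apart, and the knockout mean was 3.10-fold lower. The log2 fold change was -1.61 (SE 0.391, adjusted p-value 0.00896 by edgeR). Dcx passed the low-count filter through the WT libraries alone, and with every gene of at least 1 count tested its adjusted p-value was 0.0216 by edgeR (0.00455 to 0.0470 over all alternatives). L1cam, at chrX:73853778-73896105, encodes an adhesion molecule of growing axons that other cells, such as Schwann cells, also make. It had 28, 10 and 16 counts in WT against 39, 48 and 55 in the knockout libraries. In CPM it had 1.05, 0.777 and 0.865 in WT against 2.40, 2.67 and 1.95 in the knockout libraries, so every knockout library lay above every WT library. It was 2.60-fold higher, or 1.32 on the log2 scale (SE 0.264; edgeR adjusted p-value 0.00276). Dcx and L1cam kept their calls in all 16 alternatives that gave a value for them.

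The sequences before the start sites of both genes are shown with that of Syn1, a synaptic gene with a known REST site. They are the 250 bases before the most upstream RefSeq start (GRCm38.p6, chromosome X, minus strand): chrX:20920919-20921168 for Syn1, chrX:73880835-73881084 for L1cam and chrX:143933220-143933469 for Dcx. Capitals mark TTCAGCACC, the left part of the REST site, in Syn1, the E-box CAGATG of proneural factors in L1cam and the TATA box TATAAA in Dcx, each searched on both strands.
Syn1: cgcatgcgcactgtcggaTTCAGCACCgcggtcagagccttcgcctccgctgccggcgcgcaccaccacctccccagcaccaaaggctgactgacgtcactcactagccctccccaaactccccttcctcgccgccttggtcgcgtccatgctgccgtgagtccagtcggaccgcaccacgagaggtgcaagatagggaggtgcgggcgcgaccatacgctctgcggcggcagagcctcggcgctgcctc
L1cam: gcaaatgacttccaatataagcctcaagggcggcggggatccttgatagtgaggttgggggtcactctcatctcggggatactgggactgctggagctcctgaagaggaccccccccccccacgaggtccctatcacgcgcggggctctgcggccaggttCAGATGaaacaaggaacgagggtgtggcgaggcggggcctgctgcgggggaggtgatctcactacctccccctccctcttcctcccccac
Dcx: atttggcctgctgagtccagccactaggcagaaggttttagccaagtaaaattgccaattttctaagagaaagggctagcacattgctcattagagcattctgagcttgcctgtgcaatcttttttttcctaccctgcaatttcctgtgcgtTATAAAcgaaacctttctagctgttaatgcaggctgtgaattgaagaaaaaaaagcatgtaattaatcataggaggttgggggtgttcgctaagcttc
The REST letters began 232 bases before the RefSeq start of Syn1. The E-box began 90 bases before that of L1cam and the TATA box 98 bases before that of Dcx. GENCODE M21 places the starts of these 3 genes further upstream. The L1cam window lies within its gene span there, and the Syn1 and Dcx windows overlap theirs. Among all 32851 RefSeq windows of this length, 0.301% held TTCAGCACC, 14.4% CAGATG and 12.4% TATAAA. RefSeq windows were matched for 25 of the 37 genes, and TTCAGCACC was also found for Nsg2. The 3 windows differed in base composition, with 68.0% G and C in Syn1, 63.2% in L1cam and 41.6% in Dcx. The letters are matches and say nothing about binding in these cells.

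The other neuroblast and axon growth genes were not called. Stmn2, a stathmin of growing axons, had 33.6, 31.3 and 31.2 CPM in WT against 32.1, 31.6 and 28.2 CPM in the knockout libraries. The ranges overlapped, and the 95% interval of its log2 fold change was -0.24 to 0.093. Stmn3, a related stathmin, had 8.66, 6.22 and 7.57 CPM in WT against 5.47, 5.96 and 6.20 CPM in the knockout libraries. Every knockout library of Stmn3 lay below every WT library, but its log2 fold change of -0.37 missed the threshold (adjusted p-value 0.0835 by edgeR). Without WT replicate 2 it passed, at -0.47 and an adjusted p-value of 0.0172 by edgeR (0.0172 to 0.338 over all alternatives). Gap43, a growth cone protein, had 11.1 ± 1.10 CPM in WT against 12.1 ± 1.69 CPM in the knockout libraries. Ncam1, an adhesion molecule of neurons and glia at chr9:49502136-49798925, had 118.9, 101.4 and 122.8 CPM in WT against 125.5, 129.0 and 115.3 CPM in the knockout libraries. Its 95% interval was -0.056 to 0.26 on the log2 scale. Cntn2, an axonal adhesion molecule, had 2, 2 and 3 counts in WT against 0, 0 and 1 in the knockout libraries, at or under the floor of 3 counts throughout.

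The synaptic vesicle and endosome genes gave 2 calls in 6 tested genes, both higher, where 12.7% of all tested genes were called higher. Syn2, at chr6:115134902-115282006, encodes a synapsin that coats synaptic vesicles. It had 47.6, 45.9 and 48.5 CPM in WT against 55.8, 54.9 and 54.2 CPM in the knockout libraries. The groups were separated by a small difference, at 0.21 on the log2 scale (SE 0.0565; edgeR adjusted p-value 0.0140). Syn2 was not called when knockout replicate 1 was left out (0.20, edgeR adjusted p-value 0.0669) or knockout replicate 2 (0.22, edgeR adjusted p-value 0.0506). Its adjusted p-value over all alternatives was 0.00608 to 0.0669. Nsg1, at chr5:38137192-38159907, encodes an endosomal protein of neurons that takes part in receptor recycling. It had 26.7, 24.0 and 25.4 CPM in WT against 31.05, 31.6 and 30.9 CPM in the knockout libraries. Its log2 fold change was 0.29 (SE 0.0724, adjusted p-value 0.0102 by edgeR), and the groups did not overlap. Exons of Stx18 on the opposite strand cover 17.9% of the Nsg1 exons, and the sources do not say whether reads were counted by strand. Stx18 was not called and had 45.2 ± 2.20 CPM in WT against 41.1 ± 2.80 CPM in the knockout libraries.

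The other synaptic genes were not called, and 3 of the 4 tested had higher means in the knockout. Nsg2, the paralog of Nsg1 and the highest member per kb, had 71.3, 72.9 and 76.9 CPM in WT against 78.8, 76.5 and 83.8 CPM in the knockout libraries. Its groups overlapped by 1 library, with a log2 fold change of 0.11 (95% interval -0.014 to 0.24, adjusted p-value 0.176 by edgeR). It passed after the GC and length correction, at 0.18 with an adjusted p-value of 0.0239 by edgeR (0.0107 to 0.474 over all alternatives). Syp, which encodes the vesicle protein synaptophysin, had 7.61, 6.68 and 8.38 CPM in WT against 8.55, 10.8 and 9.77 CPM in the knockout libraries. The groups were separate, but the log2 fold change of 0.35 missed the threshold (adjusted p-value 0.0622 by edgeR). In the annotation 16.8% of the Syp exons overlap Gm14703 on the opposite strand. Syp passed without WT replicate 3, at 0.43 with an adjusted p-value of 0.0474 by edgeR, and after the GC and length correction, at 0.38 with 0.0303 (0.0303 to 0.205 over all alternatives). Syt1, the calcium sensor of vesicle release, had 2.01 ± 0.285 CPM in WT against 2.82 ± 0.593 CPM in the knockout libraries (adjusted p-value 0.106 by edgeR). Syn1 had 4.48, 4.51 and 5.14 CPM in WT against 5.35, 3.68 and 3.61 CPM in the knockout libraries, and these ranges overlapped. Snap25, a membrane fusion protein of synapses, had 9, 4 and 13 counts in WT against 10, 9 and 10 in the knockout libraries and was below the low-count filter.

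**Figure D3:**
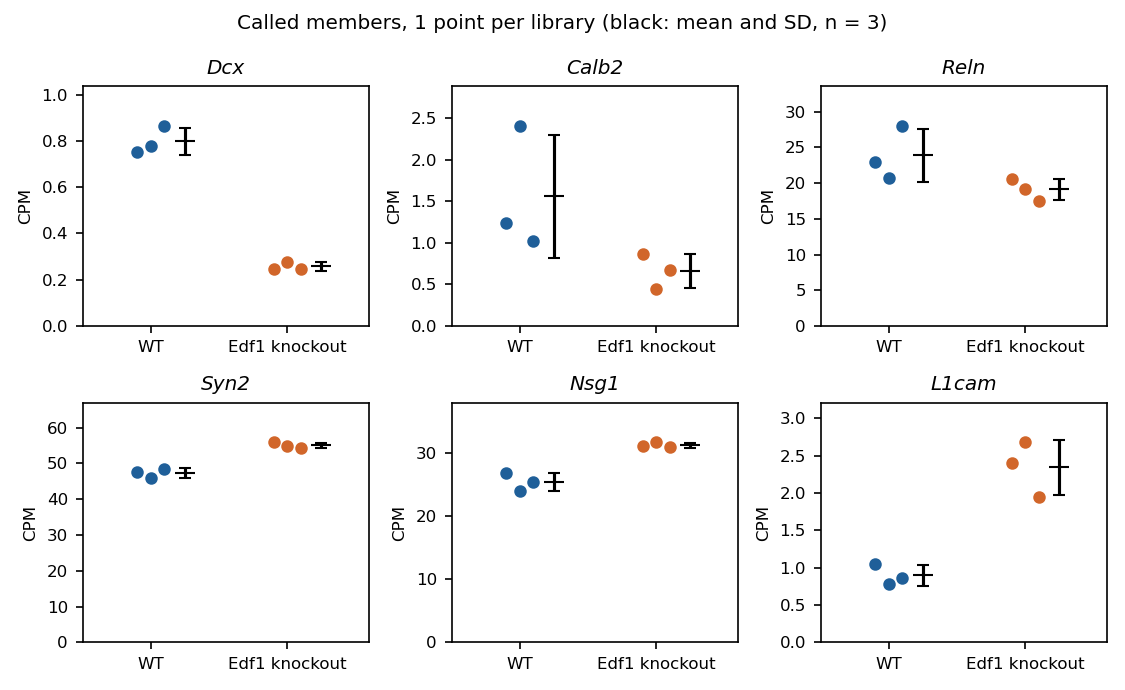
CPM in each library of the 6 called genes, with WT in blue, Edf1 knockout in orange and the mean and SD of the 3 libraries in black; each axis starts at 0. Dcx, Calb2 and Reln are lower and Syn2, Nsg1 and L1cam higher in all 3 knockout libraries; 1 WT library of Calb2, at 2.41 CPM, lies above the other WT libraries.

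Both subtype markers were called lower in the knockout by edgeR, where 14.2% of all tested genes were called lower. Reln, at chr5:21884454-22344702, encodes the secreted guidance protein reelin, made by Cajal-Retzius cells and some interneurons. It had 23.0, 20.7 and 28.0 CPM in WT against 20.6, 19.2 and 17.6 CPM in the knockout libraries. The lowest WT and the highest knockout library nearly touched, and the log2 fold change was -0.33 (SE 0.1098, adjusted p-value 0.0404 by edgeR). Its call was lost when any single library other than WT replicate 2 was left out. The value was -0.36 without WT replicate 1, -0.20 without WT replicate 3, and -0.39, -0.34 and -0.27 without knockout replicates 1, 2 and 3. Over all alternatives its adjusted p-value was 0.000539 to 0.175. Calb2, at chr8:110137502-110168210, encodes the calcium-binding protein calretinin of interneurons. It had 33, 31 and 19 counts in WT against 14, 8 and 19 in the knockout libraries, or 1.24, 2.41 and 1.03 CPM against 0.861, 0.446 and 0.673 CPM. The groups were separate but WT was widely spread, and the difference was -1.16 on the log2 scale (SE 0.387; edgeR adjusted p-value 0.0424). The Calb2 call was lost when any single library other than WT replicate 3 was left out. The value was -1.31 without WT replicate 1, -0.80 without WT replicate 2, and -1.35, -0.98 and -1.19 without knockout replicates 1, 2 and 3. Over all alternatives its adjusted p-value was 0.0270 to 0.144. Of 6 further genes marking Cajal-Retzius cells, Lhx1, Lhx5 and Ebf3 had at most 3 counts in any library, and of the 3 tested only Trp73, which multiciliated cells also express, was called lower.

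In the neuronal cytoskeleton, 0 of 2 tested genes were called by edgeR, DESeq2 or limma voom, and 1 had an unadjusted p-value under 0.05. Over all tested genes edgeR called 26.9%. Map2, a dendritic microtubule-associated protein at chr1:66175273-66442583, had 282, 209.9 and 288 CPM in WT against 249.8, 233 and 245 CPM in the knockout libraries. WT replicate 2 was low and made the groups overlap. The log2 fold change was -0.10 (95% interval -0.31 to 0.10, adjusted p-value 0.459 by edgeR). Without WT replicate 2 it was -0.23 with an adjusted p-value of 9.6e-05 by edgeR, and after the GC and length correction it was -0.17 with 0.0415 (9.6e-05 to 0.882 over all alternatives). Nefm, the medium neurofilament subunit, had 26, 6 and 20 counts in WT against 25, 37 and 41 in the knockout libraries. Its knockout libraries lay above the WT libraries in CPM, and the log2 fold change of 0.91 just missed the threshold (adjusted p-value 0.0506 by edgeR; 0.0491 with the GC and length correction; 0.0491 to 0.176 over all alternatives). In the annotation 19.2% of the Nefm exons overlap Nefl on the opposite strand. The other intermediate filament genes were near the floor, with 0 to 6 counts for Nefl, 0 to 3 for Nefh and 1 to 10 for Ina.

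Among the neuronal RNA-binding proteins, 0 of 5 tested genes were called by edgeR, DESeq2 or limma voom. Over all tested genes edgeR called 26.9%. Of these 5 genes, 0 had an unadjusted p-value under 0.05. Rbfox3 had 18, 11 and 14 counts in WT against 12, 8 and 10 in the knockout libraries. Elavl2 had 39, 9 and 30 counts in WT against 19, 7 and 31 in the knockout libraries. Elavl3 had 31, 6 and 26 counts in WT against 20, 28 and 42 in the knockout libraries. These Elavl genes encode neuronal proteins that stabilise mRNA, and WT replicate 2, the shallowest library, was the lowest WT library for each, also in CPM. Elavl4 had 13, 0 and 16 counts in WT against 8, 13 and 21 in the knockout libraries. The splicing regulator Celf4 had 2.37 ± 0.412 CPM in WT against 2.53 ± 0.619 CPM in the knockout libraries, and its direction reversed to -0.14 without knockout replicate 3. The 95% intervals of these 5 genes were wide, from -1.45 to 0.23 for Rbfox3 and from -0.80 to 1.66 for Elavl4 on the log2 scale; at this depth the data leave a wide range of possible changes for each.

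Transmitter genes and neuronal transcription factors were nearly all below the low-count filter. Gad1, one of the enzymes that make GABA, had 50, 15 and 29 counts in WT against 17, 30 and 41 in the knockout libraries. Its log2 fold change was -0.18 (95% interval -0.79 to 0.42) by edgeR, with 0 calls by DESeq2 or limma voom too and no unadjusted p-value under 0.05, and it turned to 0.013 without WT replicate 1. The second GABA enzyme Gad2 had 2 to 11 counts, and the vesicular GABA carrier Slc32a1 had 0 to 5. The vesicular glutamate carriers Slc17a6 and Slc17a7 had 0 to 5 and 1 to 17 counts, with the highest value of Slc17a7 in WT replicate 2. Neurog2, Eomes, Neurod1 and Neurod2, transcription factors of the glutamatergic lineage, had at most 3 counts in every library. Dlx5 and Dlx6 are homeobox genes of GABAergic neuroblasts. Dlx5 had 9, 10 and 16 counts in WT against 3, 8 and 4 in the knockout libraries, and Dlx6 had 9, 3 and 1 in WT against 0, 0 and 1 in the knockout libraries. Of the 15 members below the filter, 12 had a lower mean CPM in the knockout and 3 a higher one. Their summed level was 2.67, 4.35 and 2.59 CPM in WT against 1.91, 2.12 and 1.24 CPM in the knockout libraries. These values come from few counts, and 6 of the 15 members had at most 3 counts in every library. The split of 12 and 3 was not counted over all genes below the filter. It is therefore not read as a trait of these members. In the fit with every gene of at least 1 count tested, the edgeR adjusted p-values of these 15 genes ran from 0.0577 for Dlx6 to 0.951 for Snap25.

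Other genes of neuronal differentiation were taken from a list of 79 symbols, of which 78 were in the table and 58 were tested. In the knockout 13 were called higher and 9 lower by edgeR, beside 12.7% and 14.2% of all tested genes, and their median log2 fold change was 0.036. Among the larger falls were Stmn4 (-1.74), a stathmin paralog, the calcium-binding protein gene Pvalb (-0.98), the imprinted gene Nnat (-0.81) and Tubb3 (-0.81), the neuronal beta-tubulin. Stmn4 had 0.969 ± 0.208 CPM in WT against 0.298 ± 0.0629 CPM in the knockout libraries. Its counts were 25, 10 and 22 in WT against 6, 5 and 7 in the knockout libraries. Like Dcx, Stmn4 passed the low-count filter through the WT libraries alone. Tubb3 had 6.11 ± 0.783 CPM in WT against 3.45 ± 0.162 CPM in the knockout libraries. Dlx2, a homeobox gene that acts before Dlx5 and Dlx6, was called lower at 4.44 ± 0.548 CPM in WT against 2.58 ± 0.527 CPM in the knockout libraries. Among the larger rises in this list were Celf5 (1.43), a paralog of Celf4, the transcription factor gene Bcl11a (0.81) and the glutamate receptor subunit Gria1 (0.74). Celf5 had 1.81 ± 0.283 CPM in WT against 4.82 ± 0.438 CPM in the knockout libraries, and Gria1 had 71.9 ± 3.17 CPM in WT against 120.7 ± 6.29 CPM in the knockout libraries. The list's calls thus went in both directions. Without knockout replicate 2 the higher count was 8, and the lower count was 6 without any one knockout replicate.

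**Figure D4:**
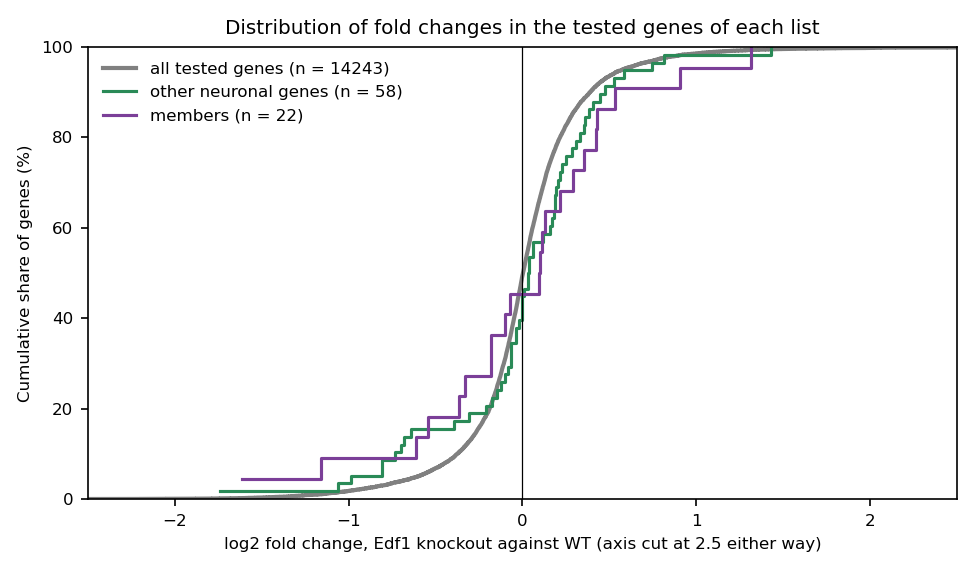
Cumulative share of genes against log2 fold change of Edf1 knockout against WT, for the 22 tested members, the 58 tested genes of the list of other neuronal genes and all 14243 tested genes. The curves cross near 0, with medians of 0.10, 0.036 and 0.0029, and the members reach from -1.61 to 1.32.

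REST and its partners were listed as 10 genes, all tested. Rest itself had 38.1 ± 7.46 CPM in WT against 43.2 ± 2.36 CPM in the knockout libraries, and it was not called (adjusted p-value 0.301 by edgeR). Ctdsp2, a phosphatase of the REST pathway, was higher at 99.8 ± 3.70 CPM in WT against 152.5 ± 5.32 CPM in the knockout libraries (0.61 on the log2 scale). The corepressor genes Hdac1 (-0.15) and Sin3a (-0.17) were called lower, and the remaining 7 genes were not called.

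Markers of cells that share some of these genes also differed between the genotypes. The 13 genes of anterior pituitary and endocrine cells, which express synaptic genes such as Syp and Snap25, summed to 29.5 to 36.4 CPM in WT and 46.8 to 53.4 CPM in the knockout. Of 9 tested, 5 were called higher and 1 lower, beside 12.7% and 14.2% of all tested genes. Prl, a pituitary hormone gene, went from 0 counts in every WT library to between 131 and 198 in the knockout ones. Lhb, another pituitary hormone gene, was the gene called lower, at 14.7 CPM in WT against 5.59 CPM in the knockout libraries. Fshb had 0 counts in every library and Pou1f1 at most 4. Of 6 Schwann and peripheral glia genes, which share L1cam, Foxd3 had at most 2 counts in any library. Of the 4 tested, Ngfr was called higher (1.55) and Pmp22, at 150.9 CPM in WT against 128.5 CPM in the knockout libraries, lower (-0.23). Ngfr had 12, 3 and 6 counts in WT against 20, 17 and 29 in the knockout libraries. Cga, of the pituitary list, had 1, 2 and 3 counts in WT against 40, 59 and 59 in the knockout libraries. Ngfr, like Prl and Cga, passed the low-count filter through the knockout libraries alone. The 10 oligodendrocyte lineage genes, which share Ncam1 and Cntn2, summed to 452 to 491 CPM in WT and 423 to 441 CPM in the knockout, with 1 called higher and 1 lower of 7 tested. Cnp, the gene called lower, made up most of this sum, at 350.3 CPM in WT against 295.1 CPM in the knockout libraries. Cspg4 was the gene called higher, at 9.15 CPM in WT against 11.9 CPM in the knockout libraries. Fibroblast and mural genes were higher in 7 of 7 tested and microglial genes lower in 7 of 8 tested. Of the 6 endothelial genes only Kdr was tested, and it was called higher (1.73), while Cldn5 and Emcn had at most 3 counts in any library. Of the choroid plexus genes, 1 of 5 tested, Otx2, was called higher. The part of these cell types in the values of the 37 genes was not tested.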

How the data were processed

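RNA from 6 cultures was sequenced, 3 WT and 3 Edf1 knockout. Libraries were made from TRIzol-extracted total RNA using the MGIEasy mRNA chemistry, as the labels' protocols state. FastQC 0.11.2, cutadapt 1.11, HISAT2 2.1.0 and build GRCm38 are named, per the submitters' processing notes; the counting program, annotation and use of strand are not given in the sources used here. The authors deposited unnormalised whole-number read counts per gene symbol, with 1 column per library.

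The counts were fitted in R 4.3.3 with edgeR 4.0.16 (filterByExpr, TMM factors, quasi-likelihood test, no covariate, Benjamini-Hochberg adjustment over all 14243 tested genes, threshold 0.05). Each standard error is the absolute log2 fold change over the root of its F statistic. CPM uses TMM-scaled totals of the tested genes. At most 3 counts in a library was taken as the floor, which covers counting error only. Exon lengths are the union of GENCODE M21 exons, and promoter windows are from RefSeq (GRCm38.p6). Every member was accounted for, and of the other lists the 5 largest called rises and falls were taken for naming, of which some are not reported here; Dlx2 and the markers named singly were chosen after their values were seen. Members and lists were chosen with earlier results of these data known. Alternatives used DESeq2 1.42.0, limma 3.58.1, other scalings and filters, a spline correction for GC content and length (4 degrees of freedom each), a replicate block and leaving out each library. The fits were tested on simulated counts. Replicates of 1 genotype differed by more than sampling noise, with a mean chi-square per gene of 3.03 to 10.03.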

Additional observations from a re-analysis of the deposited data

How the results depend on the processing

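Of the 6 called members, 2 (Dcx and L1cam) were called the same way in all alternatives. Tightening the threshold to an adjusted p-value under 0.01 left 2213 called genes over the whole table, 1 member higher, 1 member lower, 8 other neuronal genes higher and 5 lower. A mean of at least 50 counts left 12 members tested, with 1 called lower. The GC content and length correction gave 6 members higher, and 5 together with the replicate block, beside 2028 and 2119 of all tested genes. With every gene of at least 1 count tested, the median log2 fold change covered all 37 members and was -0.18, in place of 0.10 for 22, because genes with few counts entered it. Leaving out 1 library in turn gave 2658 to 4340 called genes, 2 to 4 members higher, 1 to 4 members lower, a member median of 0.012 to 0.10, 8 to 13 other neuronal genes higher and 6 to 8 lower. In those fits Celf4 ran from -0.14 to 0.26 and Gad1 from -0.31 to 0.013; the cause was not tested. Library size alone ended the Reln call (-0.32, adjusted p-value 0.0536 by edgeR), and limma voom ended that of Calb2 (-1.08, adjusted p-value 0.0504).

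With the replicate number as a block, 4065 genes, 3 members higher and 2 lower were called, and Calb2 was not (-1.12, adjusted p-value 0.0558 by edgeR). Same-numbered libraries deviated together with correlations of only 0.069, 0.060 and 0.037, so no pairing was assumed. Members with a mean under 10 counts were tested only in the fit without the low-count filter, and these few counts limit every statement on transmitter genes and transcription factors.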
